A study of Arabidopsis thaliana with 6 samples.

Results

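Tau glutathione transferases are a class of detoxifying enzymes found in plants. They join the tripeptide glutathione to reactive or foreign molecules, and many of them also reduce organic hydroperoxides with it. Their genes are known for responding to herbicides, auxin, wounding and oxidised lipids, and several stand in tandem clusters in the Arabidopsis genome. The members described here are all genes whose symbol starts with GSTU and that have a probe set listed for that gene alone. There were 11 such genes among the 13356 genes with a probe set of 1 gene, out of 28 tau genes in Arabidopsis. Each of the 11 had 1 probe set, so none had to be chosen between. The other tau genes were not analysed here.

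The arrays were Affymetrix ATH1 arrays hybridised with RNA of Arabidopsis thaliana seedlings, accession Col-0. The groups were the AtrbohB mutant at 20, 30 and 40 °C and wild type (stock N1092) at 20, 30 and 40 °C, with 1 array each and 90 plants pooled per sample. AtrbohB seedlings carry a dSpm transposon in At1g09090, a homologue of the respiratory burst NADPH oxidases; wild type has no modification in its labels. Seedlings of both genotypes had grown on MS medium with 16 hours of light a day and were floated on distilled water at 1 of the 3 temperatures, for a time that the labels do not give. The series asks how the oxidative burst takes part in heat tolerance. The mutant is 1 insertion line, and the mutant array of 40 °C has the word repeat in its title. The platform annotation lists 0 probe sets for the disrupted gene. It lists no gene for 8730 probe sets, and whether any of those belongs to the disrupted gene was not checked.

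All signals are deposited probe-set intensity on a linear scale that the authors had brought to a common level per array. The median signal of an array was 38.5 to 44. Before log2 was taken, any signal under 13.7, the 25th percentile of the pooled signals, was set to that floor, which applied to 22.9% to 27.6% of the probe sets on an array. The labels call the material whole seedlings, and markers of shoot and root were both present. The 5 shoot markers had signals of 1521.7 to 4291.3 and the 3 root markers 23.7 to 2684.3, with 0 markers listed at 0 on any array.

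Of the 11 members, 9 were above the floor on at least 2 arrays and were tested, and 7 were above it on all 6. GSTU15 had signals of 1.6, 3.1 and 1.7 at 20, 30 and 40 °C in AtrbohB, and 3.9, 2.8 and 5.3 in wild type. It was therefore at the floor everywhere, and no change of it can be given. GSTU21 had 2.1, 4.7 and 28.5 in AtrbohB and 5.4, 9.4 and 12.8 in wild type, so only the mutant array at 40 °C exceeded the floor. Both stayed out of the tests.

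Signals of all 9 tested members were lower at 30 °C than at 20 °C and higher at 40 °C than at 30 °C in both genotypes, but the rise from 30 to 40 °C was called for 7 of them and not for GSTU18 and GSTU23. At 40 °C the signal stood at 77.8% of that at 20 °C for GSTU28 in AtrbohB and at 82.0% for GSTU18 in wild type, the lowest of the 9, and at up to 351.5% for GSTU20 in AtrbohB. For all 9, both arrays at 30 °C lay below the 4 other arrays; this held for 26.9% of all tested probe sets. For GSTU20, GSTU25, GSTU26 and GSTU27, both arrays at 40 °C lay above the 4 others, against 25.3% of all tested probe sets. GSTU23 was at the floor on both arrays at 30 °C and passed the filter through the other arrays alone, so its lower value at 30 °C is in part a condition of having been tested.

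**Figure D1:**
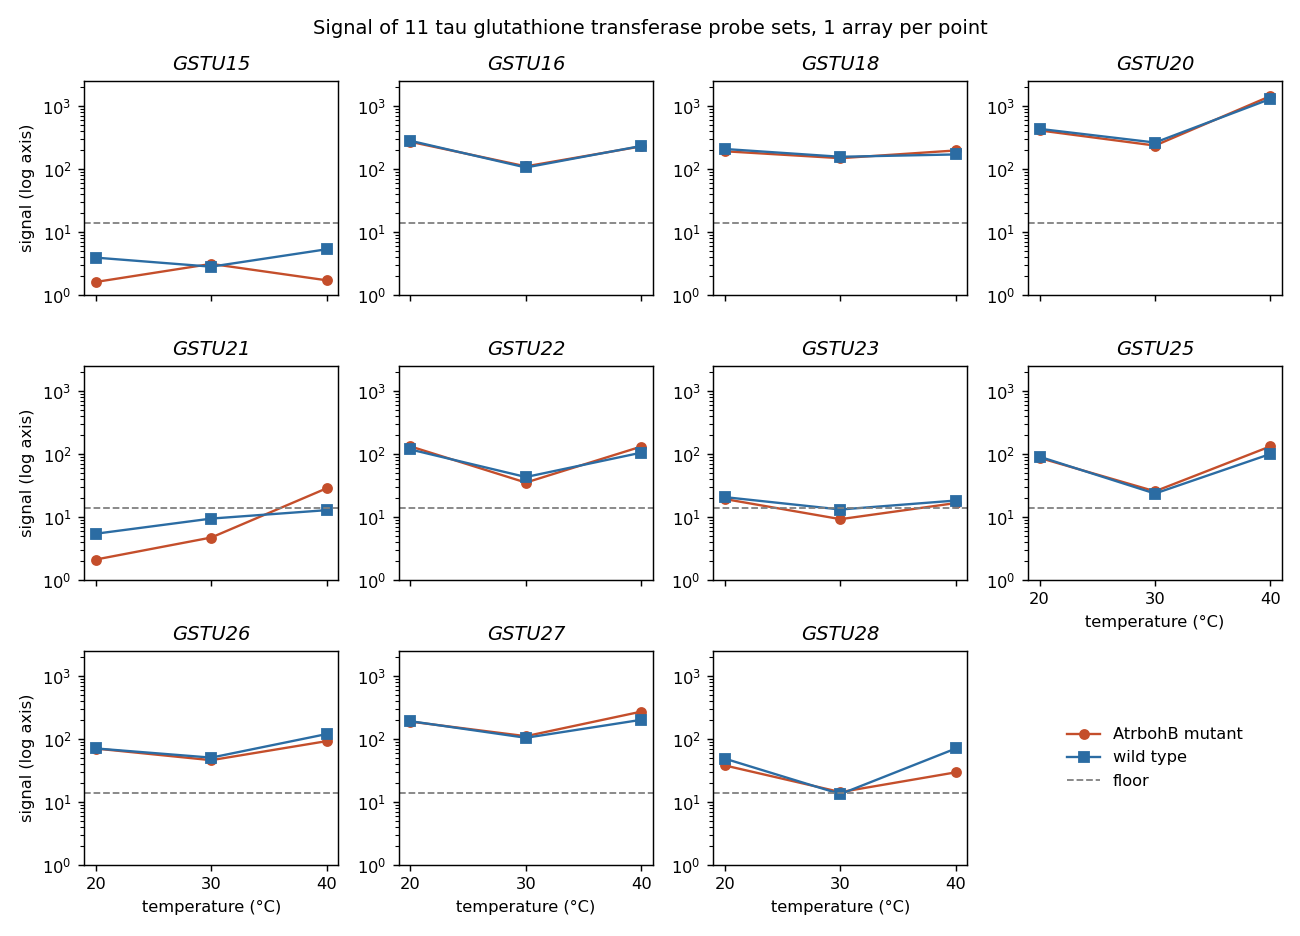
Signal of each of the 11 members (vertical log axis, deposited linear intensity) against temperature in °C, with 1 array per point for the AtrbohB mutant (circles) and wild type (squares); the dashed line is the floor of 13.7. The 9 tested members dip at 30 °C in both genotypes, GSTU20 reaches 1442.5 and 1300.3 at 40 °C, and GSTU15 stays below the floor.

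GSTU20 (AT1G78370) is also known as FIP1, a partner of the jasmonate conjugating enzyme JAR1 (FIN219) in far-red light signalling. Its signals at 20, 30 and 40 °C were 410.4, 235.6 and 1442.5 in AtrbohB and 434.1, 263.2 and 1300.3 in wild type. The 3 temperatures did not overlap, and the genotypes lay close together at each. It rose 3.24-fold at 40 against 20 °C, by 1.70 ± 0.11 on the log2 scale (SE, 2 arrays against 2, limma adjusted p = 2.21e-05). That placed it at percentile 98.7 of the changes of all 18227 tested probe sets. At 30 against 20 °C it fell (-0.76 ± 0.11, limma adjusted p = 0.00102), and from 30 to 40 °C it rose 5.5-fold (adjusted p = 2.36e-06).

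GSTU25 (AT1G17180), whose enzyme can conjugate the explosive trinitrotoluene, fell at 30 °C in both genotypes. Its signals were 86.7, 25.5 and 132.4 in AtrbohB and 90.5, 23.5 and 100.1 in wild type. Both arrays at 30 °C were the low ones, at 29.4% of the signal at 20 °C in AtrbohB and 26.0% in wild type. The change at 30 against 20 °C was -1.86 ± 0.19 (limma adjusted p = 0.000155), at percentile 1.31 of all tested probe sets. From 30 to 40 °C it rose by 2.23 ± 0.19 (adjusted p = 4.94e-05). Its 0.38 ± 0.19 at 40 against 20 °C was not called (adjusted p = 0.168).

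GSTU22 (AT1G78340) had signals of 132.1, 35.1 and 131.2 in AtrbohB and 117.9, 43 and 105 in wild type. It dropped at 30 °C and at 40 °C stood close to its level at 20 °C in both genotypes. Its change was -1.68 ± 0.18 at 30 against 20 °C (limma adjusted p = 0.000251) and 1.60 ± 0.18 at 40 against 30 °C (adjusted p = 0.000279). Between 40 and 20 °C it differed by -0.09, with a 95% interval of -0.51 to 0.34 (adjusted p = 0.754).

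GSTU28 (AT1G53680) had signals of 37.9, 14.3 and 29.5 in AtrbohB and 48.6, 13.3 and 70.6 in wild type. It came down to the floor, or next to it, at 30 °C in both genotypes, and at 40 °C it was the member on which the genotypes lay farthest apart among the 9. The change at 30 against 20 °C was -1.62 ± 0.31 (limma adjusted p = 0.00449), and at 40 against 30 °C it was 1.71 ± 0.31 (adjusted p = 0.00293). The wild-type array at 30 °C was raised to the floor for both values, and with a floor at the 40th percentile both calls were lost, at -0.62 (adjusted p = 0.105) and 0.71 (adjusted p = 0.0634).

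GSTU16 (AT1G59700) had signals of 270.6, 110.1 and 228.8 in AtrbohB and 281, 105.6 and 232.3 in wild type. The genotypes were almost superimposed, and 30 °C was the low temperature. It fell at 30 against 20 °C (-1.35 ± 0.11, limma adjusted p = 5.05e-05) and rose from 30 to 40 °C by 1.10 ± 0.11 (adjusted p = 0.000125). The value at 40 against 20 °C was -0.26 (adjusted p = 0.115).

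GSTU27 (AT3G43800), the only tested member outside chromosome 1, had signals of 188.7, 110.7 and 272 in AtrbohB and 191.7, 104.4 and 201.6 in wild type. It was lowest at 30 °C in both genotypes, and the mutant array at 40 °C was the highest. It fell at 30 against 20 °C (-0.82 ± 0.14, limma adjusted p = 0.00234) and rose from 30 to 40 °C by 1.12 ± 0.14 (adjusted p = 0.000395). The change at 40 against 20 °C was 0.30 (adjusted p = 0.145). It was 0.50 without wild type at 40 °C, which leaves 1 array at that temperature.

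GSTU26 (AT1G17190), which stands next to GSTU25, had signals of 70.4, 46 and 92.4 in AtrbohB and 70.7, 50.5 and 119.7 in wild type. It was lowest at 30 °C and highest at 40 °C in both genotypes. Its changes were -0.55 ± 0.17 at 30 against 20 °C (limma adjusted p = 0.0373) and 0.58 ± 0.17 at 40 against 20 °C (adjusted p = 0.0386). Both calls were lost when the arrays were centred on their medians (adjusted p = 0.0585 and 0.0608). The fall at 30 °C was not called without any 1 of the arrays of 20 and 30 °C (adjusted p = 0.0681 to 0.248), nor the rise at 40 °C without wild type at 20 °C, wild type at 40 °C or the mutant at 20 °C (0.262, 0.267 and 0.0689). The rise from 30 to 40 °C, 1.13 ± 0.17, kept its call under that setting.

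The remaining tested members were GSTU18 and GSTU23. GSTU18 (AT1G10360) had signals of 191.2, 148.5 and 197.1 in AtrbohB and 207.8, 156.3 and 170.3 in wild type. GSTU23 (AT1G78320) had 19.2, 9.2 and 16.6 in AtrbohB and 20.6, 13.1 and 18.2 in wild type. Both were lowest at 30 °C, GSTU23 below the floor. At 30 against 20 °C, GSTU18 had -0.39 ± 0.13 (limma adjusted p = 0.0438), a call lost on centring (adjusted p = 0.112), on quantile normalization (adjusted p = 0.0614) and without any 1 array of 20 or 30 °C (adjusted p = 0.0751 to 0.292). GSTU23 had -0.54 ± 0.18 (adjusted p = 0.0486), a fall of at least 1.45-fold, since both arrays at 30 °C were at the floor, and with neither floor nor filter it had -0.86 and was not called (adjusted p = 0.138); the call was also lost with log2(value + 16) (adjusted p = 0.101) and without any 1 of the 6 arrays (adjusted p = 0.0637 to 0.255). Neither was called from 30 to 40 °C, where GSTU18 had 0.27 and GSTU23 0.34. Without wild type at 40 °C, which leaves 1 array at that temperature, GSTU18 had 0.42.

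In counts, all 9 tested members were called lower at 30 against 20 °C and 0 higher, while 20.7% of all tested probe sets were called lower and 14.9% higher. The 7 members above the floor on all arrays were among them, and with neither floor nor filter 7 of 9 members were called lower. GSTU23 is in the count of 9 although its lower value at 30 °C is in part a condition of having been tested. The members' median change was -0.82, beside a median of -0.07 over all tested probe sets. The count was 7 when the arrays were centred or quantile normalized, and 6 to 8 with 1 array left out. From 30 to 40 °C, 7 of the 9 were called higher and 0 lower, beside 24.9% of all tested probe sets called higher and 17.8% lower; the members' median was 1.13 and that of all probe sets 0.15. Centring brought the median of all probe sets from 0.15 to 0.03 and that of the members to 0.99, with 7 members called higher as before. Between 40 and 20 °C, 2 of 9 were called higher, GSTU20 and GSTU26, beside 13.5% of all tested probe sets, and 0 lower, beside 14.7%; the median was 0.09 for the members and 0.08 for all. That share rests on 2 genes, and it was 1, GSTU20 alone, after centring and when either array of 20 °C was left out. The comparisons of 30 and 40 °C with 20 °C share the arrays at 20 °C, and both comparisons that involve 30 °C share the arrays at 30 °C.

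**Figure D2:**
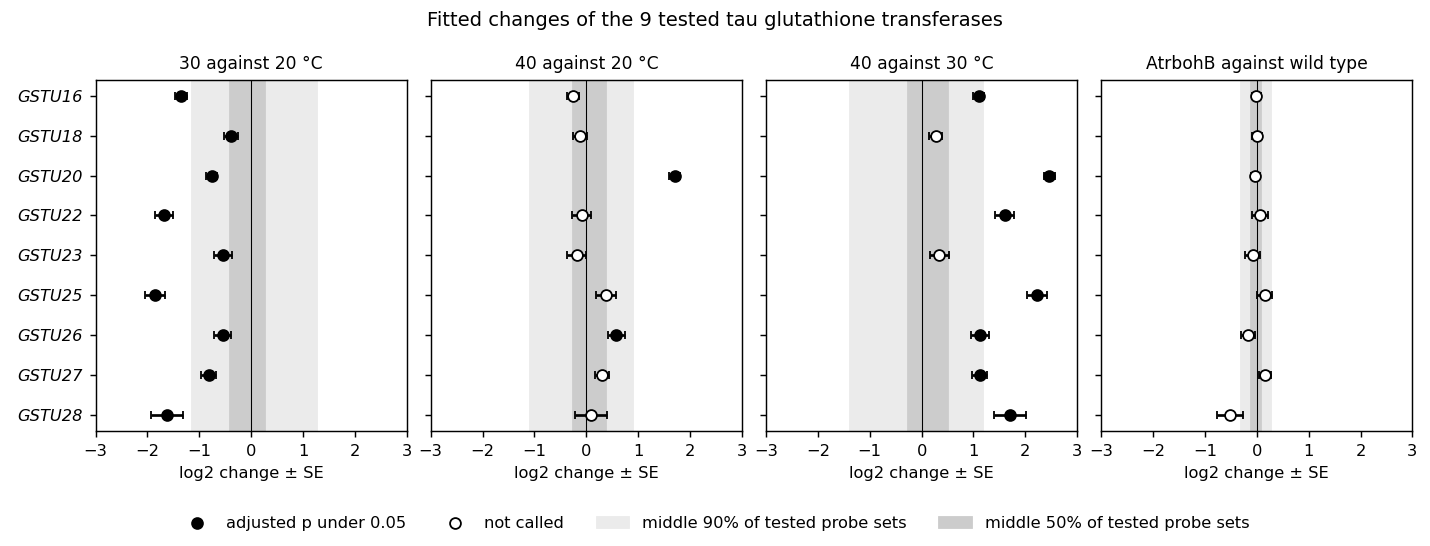
Fitted log2 change ± SE of the 9 tested members in the 4 comparisons, filled where called at an adjusted p under 0.05; grey bands span the middle 50% and 90% of the 18227 tested probe sets. At 30 against 20 °C all 9 lie left of 0, GSTU20 stands apart at 1.70 at 40 against 20 °C, and no member is called between genotypes.

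Markers of tissue also moved with temperature. The shoot list summed to signals of 12778.2, 13067.1 and 17132.4 at 20, 30 and 40 °C in AtrbohB and 11997.8, 11161.4 and 16729.5 in wild type. At 30 against 20 °C, 2 of 5 markers were called lower, PRK (-0.41) and SBPASE (-0.33), beside 20.7% of all tested probe sets. LHCB4.1, LHCB4.2 and RCA had 0.01, 0.13 and 0.25 and were not called, and the median of the list was 0.01. At 40 against 20 °C, 3 of 5 were called higher, beside 13.5%. At 40 against 30 °C, 4 of 5 were called higher (median 0.57), beside 24.9%. The root list summed to 2756.1, 2228.9 and 850.6 in AtrbohB and 2644.7, 2083.3 and 915.9 in wild type. That sum is almost all PYK10, a beta-glucosidase of the root, with signals of 2684.3, 2158.4 and 789.9 in AtrbohB and 2587.4, 1993.5 and 849.8 in wild type. PYK10 was the 1 of 3 called in each comparison with 20 °C, with -0.35 at 30 °C and -1.69 at 40 °C. The expansins of root hairs EXPA7 and EXPA18 were not called there and had 0.49 and 0.09 at 30 °C and -0.32 and 0.24 at 40 °C. From 30 to 40 °C, PYK10 (-1.34) and EXPA7 (-0.81) were called lower, and EXPA18 had 0.15. Of all tested probe sets, 14.7% were called lower at 40 against 20 °C and 17.8% at 40 against 30 °C. The part of tissue proportions in the members' values was not tested; in whole seedlings, fewer cells of a type and less RNA per cell cannot be told apart.

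No member was called between AtrbohB and wild type over the 3 temperatures (0 of 9 by limma, and 0 at an unadjusted p under 0.05). Of all tested probe sets 0% were called, and 4.03% had an unadjusted p under 0.05. The members' differences, mutant minus wild type, ran from -0.52 to 0.16 with a median of -0.01. For GSTU20 the difference was -0.03, with a 95% interval of -0.24 to 0.17. For GSTU16 the interval was -0.21 to 0.20 and for GSTU18 -0.23 to 0.24. The widest interval was that of GSTU28, from -1.10 to 0.06 around -0.52. A difference of 2-fold lay outside the interval in both directions for 8 members; for GSTU28 a value 2-fold lower in the mutant lay inside it and a value 2-fold higher outside.

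By temperature, the mutant was lower for 8 of 9 tested members at 20 °C and higher for 1. The differences were -0.36 to 0.16 with a median of -0.06, and GSTU26 (-0.01) and GSTU27 (-0.02) count among the lower. The share of all tested probe sets that were lower there is not given, so the count is not read as a trait of the members. At 30 °C, 4 were higher and 4 lower, and GSTU23 was at the floor in both genotypes; the range was -0.29 to 0.12. At 40 °C the range widened to -1.26 to 0.43, with 5 higher and 4 lower. The value at the low end was GSTU28, with a signal of 29.5 in AtrbohB and 70.6 in wild type at 40 °C; 1.09% of all tested probe sets were at least 2-fold lower in the mutant at that temperature. Among the untested members, GSTU21 was at least 2.08-fold higher in AtrbohB at 40 °C, with 28.5 against a wild-type signal below the floor. Its 5 other arrays were at the floor, and the share of all probe sets that much higher in the mutant is not given. Each of these differences rests on 1 array against 1 and has no test. The scan record of the mutant array at 40 °C lists 1163 outlier cells, the most of any array, and that of wild type at 40 °C lists 372. Whether this bears on the members' signals was not tested.

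The response to 30 °C had the same direction in both genotypes for all 9 tested members. GSTU22 had -1.91 in AtrbohB and -1.46 in wild type. GSTU28 had -1.41 in AtrbohB and -1.83 in wild type, where the array at 30 °C was at the floor. Mutant and wild-type responses to 30 °C differed by a median absolute value of 0.11 for the members and 0.24 for all tested probe sets. In the response to 40 °C, GSTU20 had 1.81 in AtrbohB and 1.58 in wild type. GSTU25 had 0.61 and GSTU27 0.53 in AtrbohB, beside 0.15 and 0.07 in wild type, while GSTU26 had 0.39 in AtrbohB and 0.76 in wild type. GSTU28 had -0.36 in AtrbohB and 0.54 in wild type. For 40 °C the median absolute difference was 0.33 for the members and 0.24 for all tested probe sets, and 0 of the 9 members differed by 1 or more, as 3.5% of all tested probe sets did.

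**Figure D3:**
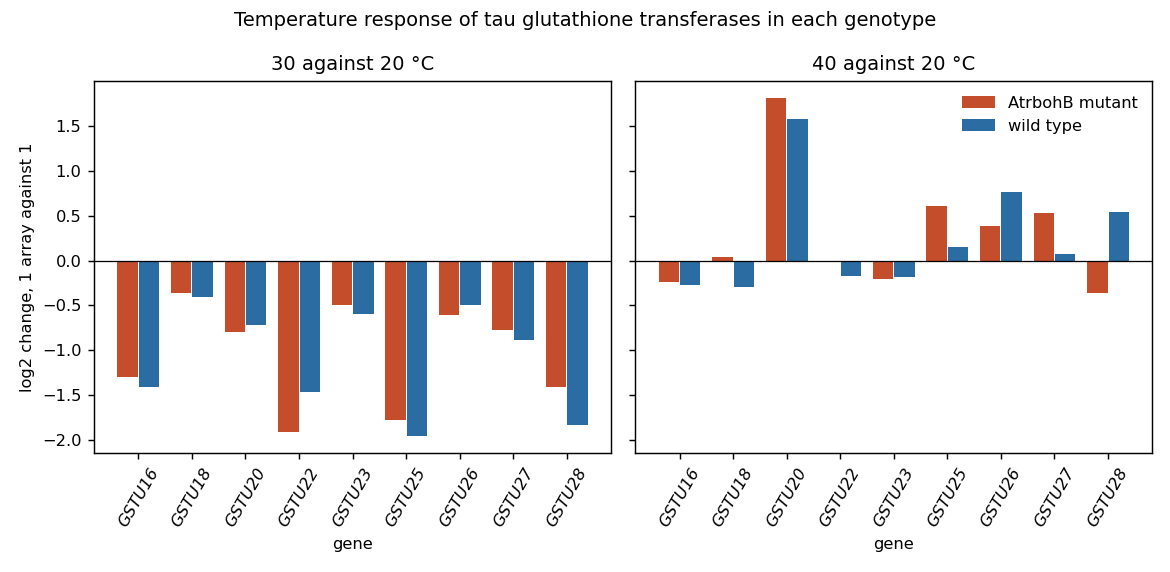
Log2 change of the 9 tested members at 30 against 20 °C and at 40 against 20 °C, with 1 bar for the AtrbohB mutant and 1 for wild type, each from 1 array against 1 with signals under 13.7 raised to that floor. All bars point down at 30 °C; at 40 °C GSTU20 rises in both genotypes and GSTU28 points down in AtrbohB (-0.36) and up in wild type (0.54).

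Several members are neighbours in the genome. GSTU20, GSTU21, GSTU22 and GSTU23 stand side by side with 0 other protein-coding genes between them, and GSTU25 and GSTU26 are also adjacent, by the gene order of RefSeq assembly TAIR10.1. Within the first run, GSTU20 rose at 40 against 20 °C, GSTU22 and GSTU23 had -0.09 and -0.19, and GSTU21 was below the floor on 5 of 6 arrays. Across the 6 arrays, Pearson's r of log2 signal was 0.89 between GSTU22 and GSTU23 and 0.86 between GSTU25 and GSTU26. It was 0.70 between GSTU20 and GSTU22, which have GSTU21 between them. The highest value was that of GSTU25 with GSTU27 (0.99), which lie on different chromosomes, and the lowest that of GSTU20 with GSTU23 (0.43). These coefficients describe 6 points that share 3 temperatures.

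For the 7 members that ranged over at least 1 log2 unit, the genes of the most similar pattern were sought among 10170 others. AtrbohB and wild type together gave 6 arrays for each coefficient. GSTU20 was closest to AT1G51110, AT5G37360 and AT1G75210 (r = 0.999, 0.999 and 0.998). GSTU25 was closest to ATKDSA2, a synthase of the cell wall sugar KDO, to NdhL, a subunit of the chloroplast NADH dehydrogenase-like complex, and to AT2G46560, each with r = 0.999. GSTU27 was closest to NDB1, an external NADPH dehydrogenase of mitochondria (0.999), then to AT3G43540 and AT3G04450. GSTU22 was closest to bZIP19, a regulator of the response to zinc deficiency, to AT5G47435 and to AT5G03900, each with r = 0.997.

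GSTU16 was closest to AT2G15020, AT1G66330 and AT3G45210, with r of at least 0.998. GSTU26 followed AT4G24830 (0.996), AT5G57170 and AT5G45760 (0.994 each), and GSTU28 followed AT3G14120, AT3G08630 and AT4G13860 (0.991, 0.989 and 0.985). High coefficients are common in these data: between 53 and 444 genes had r above 0.95 with a given member. How many reached the higher values listed here is not given. No member had another member among its 3 closest genes. The nearest was GSTU25, at rank 36 for GSTU27.

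Few other genes of glutathione and xenobiotic metabolism could be set beside the tau class. There were 77 genes on 7 lists (phi and other classes of the transferases, glutathione synthesis and reduction, peroxidases, ABCC transporters, xenobiotic response, TGA factors). Of these, 8 had a probe set listed for that gene alone and are called measured, and 7 were tested. The lists of peroxidases, ABCC transporters and TGA factors had 0 measured genes in this sense. The platform annotation lists no gene for 8730 probe sets and several for 503. Whether some of those belong to the listed genes was not checked. At 30 against 20 °C, 4 of the 7 were called lower and 0 higher, with a median of -0.61, beside 20.7% of all tested probe sets called lower and 14.9% higher. The 4 became 2 when wild type at 20 °C, wild type at 30 °C or the mutant at 30 °C was left out. At 40 against 20 °C, 1 was higher and 1 lower, close to the 13.5% and 14.7% of all tested probe sets. From 30 to 40 °C, 3 were higher and 0 lower, beside 24.9% and 17.8%. The 3 became 2 on centring, with an untrended prior and with neither floor nor filter. Between genotypes 0 of the 7 were called.

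Both measured glutathione reductases, which regenerate reduced glutathione, fell at 30 °C. GR1, the enzyme of the cytosol, had signals of 689.9, 415.5 and 514.2 at 20, 30 and 40 °C in AtrbohB and 840.7, 370 and 500.8 in wild type, with -0.96 ± 0.12 at 30 °C and -0.59 ± 0.12 at 40 °C (limma adjusted p = 0.000607 and 0.0101). GR2, the enzyme of chloroplasts and mitochondria, had 601.7, 365.5 and 564.8 in AtrbohB and 535.6, 381 and 611.7 in wild type, with -0.61 ± 0.11 at 30 °C (adjusted p = 0.00301) and 0.05 at 40 °C. GR2 thus had the dip and the return seen in GSTU22. GR1 also rose from 30 to 40 °C, by 0.37 ± 0.12 (limma adjusted p = 0.0415), but stayed lower at 40 °C than at 20 °C. With an untrended prior in limma that lower level was not called (adjusted p = 0.0504). Without wild type at 20 °C the fall of GR1 at 40 °C was not called (-0.39, adjusted p = 0.12).

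The lambda transferase GSTL3, of a class that removes glutathione from its conjugates, had signals of 327.2, 274.8 and 519.4 in AtrbohB and 361.8, 266.6 and 425.9 in wild type. It rose at 40 against 20 °C by 0.45 ± 0.12 (limma adjusted p = 0.0278), a call lost on centring (adjusted p = 0.0866) and when the mutant array of 20 °C or of 40 °C was left out (adjusted p = 0.241 and 0.159). At 30 °C it had -0.35 and was not called (adjusted p = 0.0587). It was called there on quantile normalization (adjusted p = 0.0481) and with the filter on all 6 arrays (0.0417). With 1 array left out, that change ran from -0.50 to -0.19. From 30 to 40 °C GSTL3 rose by 0.80 ± 0.12 (adjusted p = 0.00123). The phi transferases GSTF4 and GSTF13 were not called: at 30 °C they had 0.07 and 0.31, and at 40 °C 0.24 and 0.44. GSTF4 was at the floor on 3 arrays.

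The glucosyltransferase UGT73B4, induced in stress, had signals of 27.8, 14.6 and 26.1 in AtrbohB and 41.1, 8.2 and 11.1 in wild type. UGT73B5, a close relative, had 26.3, 19.1 and 23.1 in AtrbohB and 26.8, 13.1 and 12.8 in wild type. Both were at the floor in wild type at 30 and 40 °C. At 30 °C they fell by 1.26 and 0.71 on the log2 scale (limma adjusted p = 0.0175 and 0.0443), values that the floor limits. The call of UGT73B5 was lost on centring (adjusted p = 0.0586) and on quantile normalization (0.0673). It was also lost with log2(value + 16) (0.101) and with neither floor nor filter (0.185). Leaving out wild type at 20 °C, wild type at 30 °C or the mutant at 30 °C ended the call of UGT73B4 (adjusted p = 0.141, 0.0778 and 0.101) and that of UGT73B5 (0.397, 0.2 and 0.148).

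**Figure D4:**
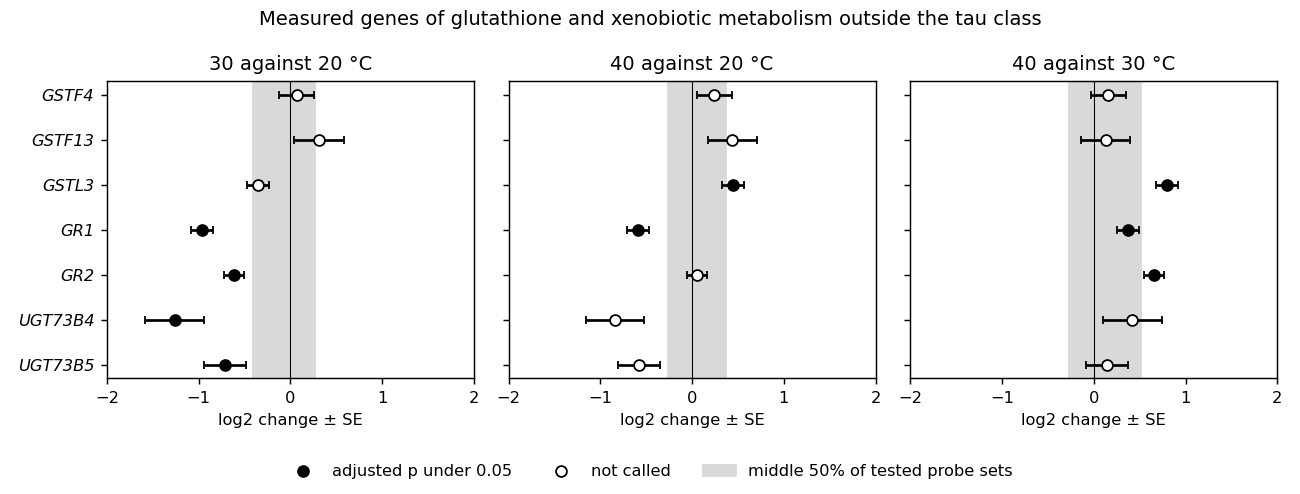
Fitted log2 change ± SE of the 7 tested genes of glutathione and xenobiotic metabolism outside the tau class in the 3 temperature comparisons, filled where called at an adjusted p under 0.05; the grey band spans the middle 50% of all tested probe sets. GR1, GR2, UGT73B4 and UGT73B5 are lower at 30 °C, and GSTL3, GR1 and GR2 rise from 30 to 40 °C.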

How the data were processed

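The deposited values are linear intensity per probe set. With 2% of values trimmed at each end, every column averages 100, from which the authors' scaling to a common level is read; the summary method and software are not given in the sources used here. Of 22810 probe sets, 64 controls were left out. The platform annotation gives 13513 probe sets 1 gene, 503 several and 8730 none; gene numbers matched the RefSeq table of TAIR10.1 for 13436 of the first, which then took its symbols. The probe set of highest mean stood for a gene with several.

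Values were raised to 13.7 and put on the log2 scale, and 18227 probe sets above it on at least 2 arrays entered a fit in limma 3.58.1 under R 4.3.3 (genotype and temperature as additive terms, trended prior, Benjamini-Hochberg over all probe sets, two-sided, adjusted p under 0.05). Temperatures are thus compared as 2 arrays against 2, and genotypes as 3 against 3. No group has replicates: the 2 residual degrees of freedom (6.08 prior) hold departures from additivity together with array noise, and a difference between genotypes in a temperature response has no test. The number of arrays limits the precision. With 1 array left out, 1 residual degree of freedom remained. Without either array of 40 °C the prior degrees of freedom were infinite, so the adjusted p-values of those fits rest on the prior spread alone. A check of the fit on simulated data drew variances from its own fitted prior, so it bears on calibration under the model's assumptions and not on power; stricter versions, with residual or posterior variances, missed the limits set for recovery or false calls, and the limits were revised after that.

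The members and lists were chosen with earlier results of these data known. All members are named; of each list, up to 4 measured genes with the largest change, and for members ranging over 1 log2 unit the 3 genes of highest r. The alternatives were centring, quantile normalization, a higher floor (40th percentile), neither floor nor filter, log2(value + 16) in place of the floor, testing only probe sets above the floor on all 6 arrays, a robust or an untrended prior in limma, and leaving out 1 array at a time. Probe sequences were not analysed here, so cross-hybridisation among similar tau genes was not checked. Figures were drawn with matplotlib 3.10.9.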

Additional observations from a re-analysis of the deposited data

Results flagged for a closer look

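Over the 9 tested members and the 3 temperature comparisons, 2 results had opposite directions in the genotypes. Each came from 1 array against 1 per genotype. The differences were not tested, and the share of all tested probe sets with opposite directions is not given. At 40 against 20 °C, GSTU28 had -0.36 in AtrbohB and 0.54 in wild type, a difference of -0.90. GSTU18 had 0.04 in AtrbohB and -0.29 in wild type at 40 against 20 °C, a difference of 0.33. The members' median absolute difference for 40 °C was also 0.33. In AtrbohB the GSTU18 signals were 191.2 at 20 °C and 197.1 at 40 °C.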

How the results depend on the processing

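The labels number no replicates across groups, so no replicate block was added; the genotype term already sets temperatures against each other within a genotype. Of the members' calls, those of GSTU16, GSTU20, GSTU22, GSTU25 and GSTU27 at 30 against 20 °C, of GSTU20 at 40 against 20 °C, and of GSTU16, GSTU20, GSTU22, GSTU25, GSTU26 and GSTU27 at 40 against 30 °C were kept under all 14 alternatives. The fall at 30 °C was lost in 8 of 14 for GSTU18, 6 of 14 for GSTU26, 9 of 12 for GSTU23 and 1 of 13 for GSTU28. The call of GSTU26 at 40 against 20 °C was lost in 4 of 14. The members' count at 40 against 20 °C was 1 on centring, and 1 to 2 with 1 array left out. The list genes called at 30 against 20 °C were 4, 2 with the higher floor, where 4 instead of 7 were tested, and 2 to 5 with 1 array left out (2 without wild type at 20 °C, wild type at 30 °C or the mutant at 30 °C). At 40 against 20 °C they were 2, 1 on centring, 0 without the trend (limma), and 1 to 3 with 1 array left out. The cause of these losses was not tested. Values that changed sign were never called: mutant minus wild type of GSTU16 (0.02 on quantile normalization, 0.01 on centring) and GR2 at 40 against 20 °C (-0.02 on centring). With 1 array left out, mutant minus wild type ran from -0.04 to 0.02 for GSTU16, -0.10 to 0.07 for GSTU18, -0.12 to 0.03 for GSTU20 and -0.06 to 0.24 for GSTU22. The change at 40 against 20 °C ran from -0.28 to 0.03 for GSTU18, -0.28 to 0.10 for GSTU22, -0.47 to 0.64 for GSTU28, -0.01 to 0.90 for GSTF13 and -0.08 to 0.18 for GR2. At 30 against 20 °C it ran from -0.06 to 0.20 for GSTF4 and -0.15 to 0.76 for GSTF13. The mean over probe sets was not run as an alternative, since each member has 1. Low signal limits GSTU15, GSTU21, GSTU23 and GSTU28.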
